A study of Mus musculus with 4 samples.

Results

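The actin cytoskeleton and actomyosin genes described here are 59 mouse genes, listed by symbol, that encode actins, the proteins that bind, move, cut or crosslink actin filaments, and regulators of filament assembly. Of these, 54 had values, in 80 of the 12515 transcript rows of the deposited table, which holds 10213 gene symbols. Actg2, Tpm2, Vil1, Diaph1 and Plek2 had no row. The genes were separated into a smooth-muscle type group, with 5 of its 7 genes measured (Acta2, Tagln, Myl9, Cnn1 and Tpm1), and a cortical actin group, with 49 of its 52 genes measured. The genes were chosen by their function and on their FPKM in these same libraries, Fmr-i1 against Ctrl-i, so their fold changes are given as descriptions with no test.

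Actin monomers assemble into filaments with a fast-growing and a slow-growing end. Profilins and thymosins hold monomers, the Arp2/3 complex and formins start filaments, capping proteins and cofilins end or cut them, and tropomyosins, calponins and caldesmon lie along them. Non-muscle myosin II pulls on filaments when its light chains are phosphorylated. In ependymal and other multiciliated cells, an apical actin meshwork surrounds and anchors the basal bodies from which the cilia grow. Genes of the smooth-muscle type group are best known from contractile cells but are also transcribed in stressed, spread or migrating cells of other types.

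The RNA came from mouse ependymal cells (mEPCs) grown from the telencephalon of newborn C57BL/6 pups of either sex. Fmr-i1 multicilia came from mEPCs transfected with an siRNA against Fmr1, the gene of the RNA-binding protein Fmrp. Ctrl-i multicilia came from mEPCs given a control siRNA. The study describes 40 pmol of siRNA for cells in dishes, given repeatedly from before serum removal. It states no separate amount for the flasks used to purify cilia. Serum was removed from all cultures to start differentiation, and days are counted from this serum starvation. At day 10 multicilia were sheared off both kinds of culture with the apical cortexes that carry them. They were purified on an iodixanol gradient, and poly(A) RNA was sequenced. There were 2 Fmr-i1 and 2 Ctrl-i libraries, 1 of each in Exp.1 and 1 of each in Exp.2, which the study calls independent experiments. Wherever 2 values are given for a group, the first is from Exp.1 and the second from Exp.2. The preparations hold cell cortex as well as cilia, the cultures are mixed, and fewer cells of a type cannot be told apart from less RNA per cell.

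The row of Fmr1 was at 0 FPKM in Fmr-i1 in both experiments, against 0.42 and 8.13 FPKM in the Ctrl-i libraries. Values are FPKM, which count fragments by transcript length and by the total of the library, and the rows of a gene were summed unless a transcript is named. Values of exactly 0 stood in 162 rows of each Fmr-i1 library and in 0 rows of each Ctrl-i library, where the lowest value was 0.01 FPKM. A gene listed at 0 FPKM may be one whose estimate failed, and no member row was at 0 in any library. With no row at 0 in Ctrl-i, genes at 0 there may have been left out of the deposited rows. A gene with no row can therefore not be called absent from Fmr-i1. Each library was also divided by its median FPKM, because the median over all 9804 symbols with a mean of at least 1 FPKM was shifted toward Fmr-i1. The mean difference in log2(FPKM+1), Fmr-i1 minus Ctrl-i, had a median of 0.16 over these symbols, and of -0.01 after median scaling. Differences on this scale understate the change of genes with a low FPKM.

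Actin and actomyosin genes took up a larger share of the Fmr-i1 libraries as deposited. Together the 54 genes summed to 13000 and 11395 FPKM in Fmr-i1, against 10338 and 9230 FPKM in Ctrl-i, so that both Fmr-i1 libraries lay above both Ctrl-i libraries. The ratio of Fmr-i1 to Ctrl-i was 1.26 in Exp.1 and 1.23 in Exp.2, and 1.16 and 1.02 after median scaling, when the sums of 12447 and 10446 in Fmr-i1 overlapped with those of 10695 and 10278 in Ctrl-i. By symbol, 36 of the 54 were higher in Fmr-i1 in both experiments, 2 were lower in both, and 16 went opposite ways, while 35.6% of all symbols were higher in both and 15.2% lower in both. After median scaling 27 were higher in both and 7 lower in both, beside 24.1% and 25.7% of all symbols. In 31 genes both Fmr-i1 libraries lay above both Ctrl-i libraries and in 2 both lay below, beside 27.2% and 9.99% of all symbols, and after median scaling these were 22 and 4 genes, beside 17.1% and 18.2%. The values that chose the list are the ones counted here, so these counts describe the list and test nothing.

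**Figure D1:**
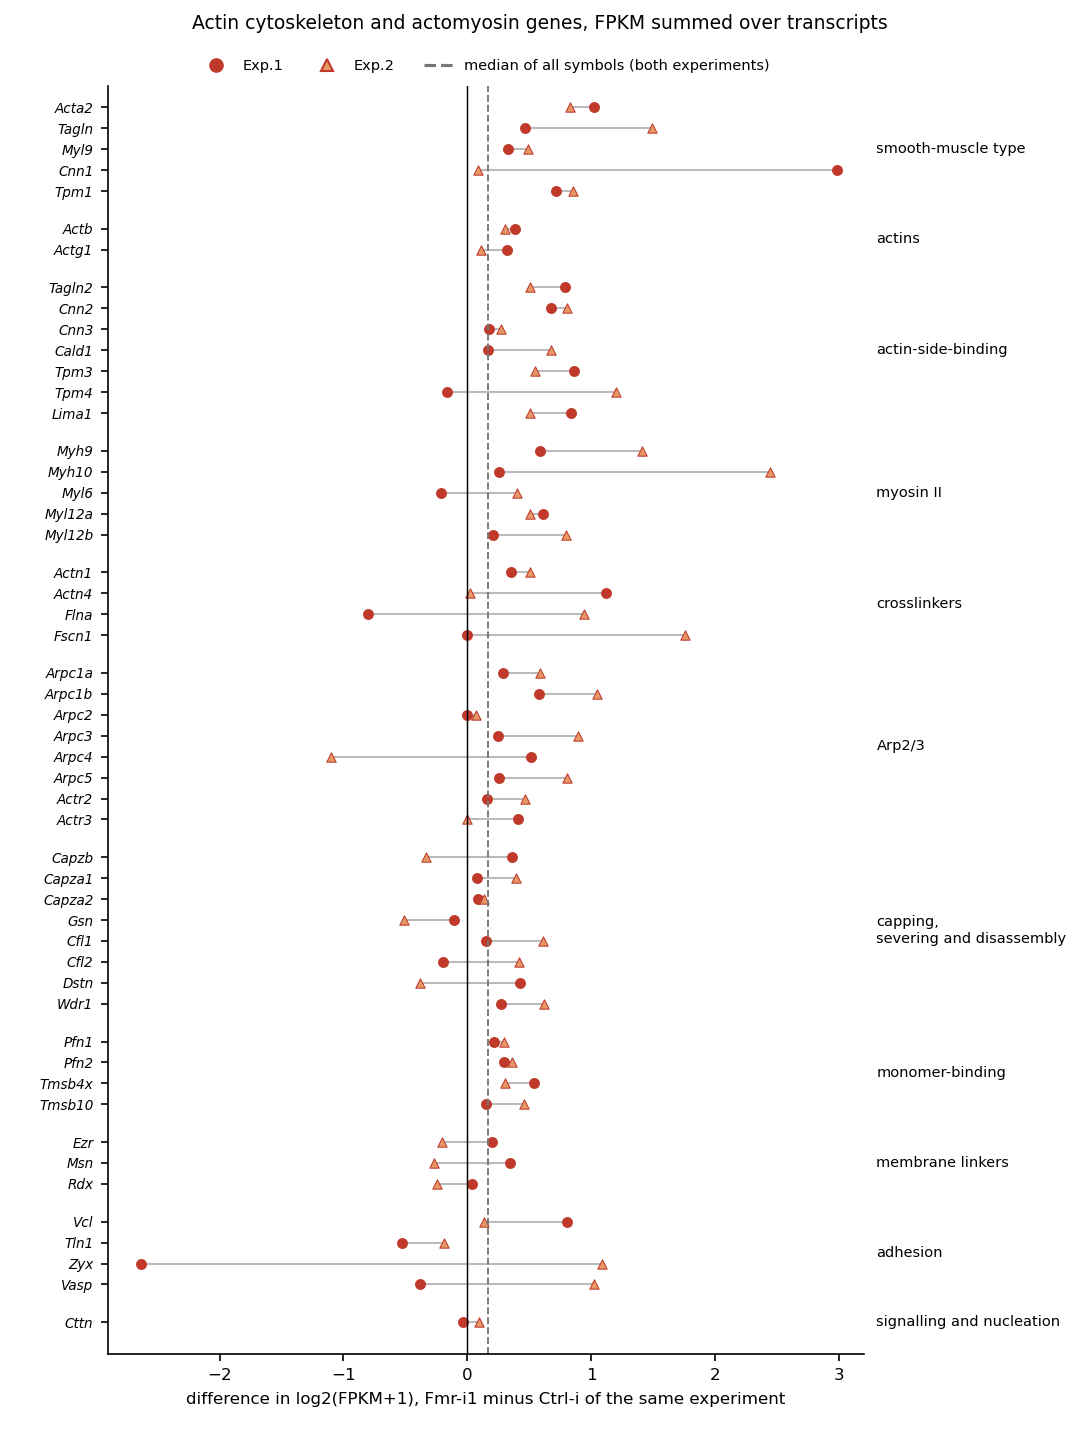
Difference in log2(FPKM+1) between Fmr-i1 and Ctrl-i of the same experiment for the genes described, by role, with Exp.1 as circles, Exp.2 as triangles and the median of all symbols (0.16) as a dashed line. Most points lie right of 0, the 5 smooth-muscle type genes do so in both experiments, and the 3 membrane linkers fall on opposite sides in the 2 experiments.

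The spread between libraries of one group was about as wide as the difference between groups in Exp.1, and narrower than it in Exp.2. Over the 54 genes, the 2 Fmr-i1 libraries had a median gap of 0.30 between them on the log2(FPKM+1) scale, regardless of sign. The 2 Ctrl-i libraries had one of 0.33, while the gap between Fmr-i1 and Ctrl-i was 0.31 in Exp.1 and 0.50 in Exp.2. Over all symbols these gaps were 0.38, 0.40, 0.37 and 0.48 in the same order. In limma fitted over 11898 rows, blocked on experiment and with p-values adjusted by Benjamini-Hochberg, 0 of the 79 member rows tested had an adjusted p under 0.05, beside 0.0% of all rows. The lowest adjusted p of a member row was 0.945. At an unadjusted p under 0.05, 7 member rows passed, beside 5.03% of all rows. The other row, of Flna transcript Flna-203, stood at 0.01 FPKM in every library and was not tested.

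The smooth-muscle type genes showed the widest separation between the groups among the 11 roles as deposited. Their sum was 338 and 319 FPKM in Fmr-i1, against 192 and 163 FPKM in Ctrl-i, with ratios of 1.76 and 1.96. After median scaling the ratios were 1.63 and 1.61. All 5 genes were higher in Fmr-i1 in both experiments as deposited, beside 35.6% of all symbols. All 5 also had both Fmr-i1 libraries above both Ctrl-i libraries, beside 27.2%, though Cnn1 did so at 0.51 against 0.42 FPKM. After median scaling 4 were higher in both, beside 24.1% of all symbols. Then 3 (Acta2, Tagln and Tpm1) were without overlap, where 17.1% of all symbols had both Fmr-i1 libraries above. The median difference of the 5 genes was 0.93 on the log2(FPKM+1) scale, beside 0.16 over all symbols.

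Acta2 encodes smooth-muscle alpha-actin, the actin of contractile bundles. Its row, Acta2-201 (chromosome 19 of GRCm38, 34241090 to 34255590, minus strand), had 149.8 and 100.3 FPKM in Fmr-i1, against 73.3 and 55.9 FPKM in Ctrl-i. The lower Fmr-i1 value lay above the higher Ctrl-i value, and the group means were 125.1 ± 35.0 FPKM and 64.6 ± 12.3 FPKM (SD, n = 2 each). The log2 fold change was 0.93 (standard error 0.29). Its level was far below that of the cytoplasmic actins, Actb and Actg1, in every library.

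Tpm1, a tropomyosin gene with muscle and non-muscle transcripts, had 115 and 114 FPKM in Fmr-i1, against 69.6 and 62.6 FPKM in Ctrl-i. The groups were separated by more than the spread within either (114.3 ± 0.57 FPKM and 66.1 ± 4.91 FPKM, SD, n = 2 each), and the log2 fold change was 0.78 (standard error 0.30). Tagln, which encodes transgelin or SM22, a calponin-like protein that binds along filaments, had 48.6 and 81.9 FPKM in Fmr-i1, against 35.0 and 28.4 FPKM in Ctrl-i. Its Exp.2 library of Fmr-i1 was the highest, the groups did not overlap, and the log2 fold change was 0.98 (standard error 0.39).

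Myl9, a regulatory light chain of myosin II that is prominent in smooth muscle, differed less. It had 17.6 and 22.5 FPKM in Fmr-i1, against 13.8 and 15.7 FPKM in Ctrl-i. Its log2 fold change of 0.41 came near the standard error, 0.38. The groups did not overlap as deposited and did after median scaling. Cnn1, which encodes the smooth-muscle calponin, had 7.14 and 0.51 FPKM in Fmr-i1, against 0.03 and 0.42 FPKM in Ctrl-i. Only the Exp.1 library of Fmr-i1 was above 1 FPKM, so the log2 fold change of 1.54 (standard error 0.78) rests on that library. Without it, the log2 fold change was 0.32.

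**Figure D2:**
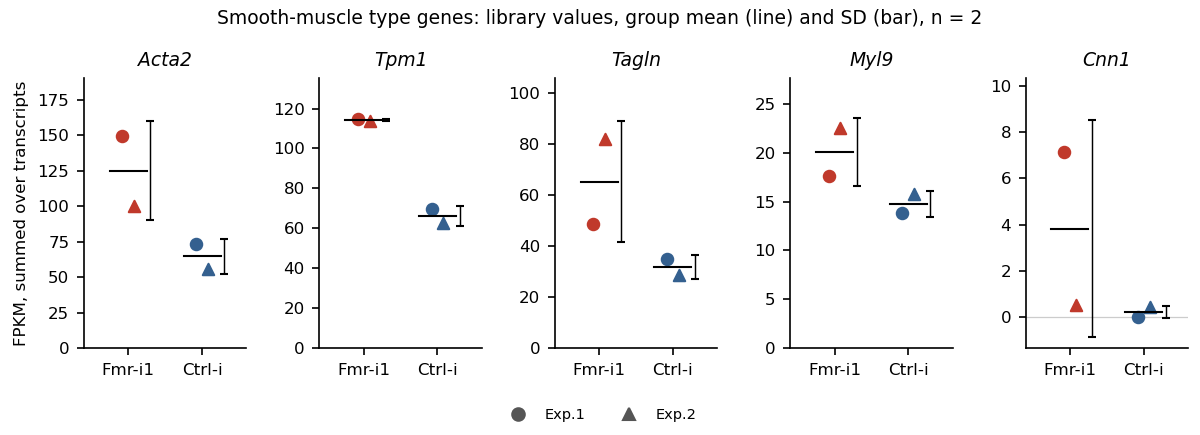
FPKM of the 5 smooth-muscle type genes in each library, Fmr-i1 in red and Ctrl-i in blue, Exp.1 as circles and Exp.2 as triangles, with the group mean as a line and the SD as a bar (n = 2). The groups are separated in each panel, by more than the group SDs for Tpm1, while for Cnn1 the separation is 1 library at 7.14 FPKM.

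The actins are close paralogs, so fragments from shared stretches could be assigned to either. The first 30 coding bases of the 3 actin genes measured are shown because actin isoforms are known to differ at the amino terminus, in a run of acidic codons that is set in capitals, as read from the GENCODE M21 transcripts on GRCm38:
Acta2: atgtgtGAAGAGGAAGACagcacagccctg
Actb: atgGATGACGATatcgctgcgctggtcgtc
Actg1: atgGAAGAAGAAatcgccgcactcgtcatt
Acta2 has 4 acidic codons in this run and the cytoplasmic actins have 3 each, which are all GAA in Actg1 and are GAT or GAC in Actb. Over the coding sequence Acta2 matched Actb at 82.8% of aligned bases and Actg1 at 81.5%, and the longest stretches shared without a mismatch were 47 and 56 bases. Actb and Actg1 matched at 88.6%, with a longest shared stretch of 62 bases. These stretches are shorter than a read of the study, and the handling of fragments that fall in them by the authors' software is not given in the sources used.

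Actb and Actg1, the cytoplasmic beta- and gamma-actin genes, were among the most abundant members. Actb (Actb-201, chromosome 5, 142903115 to 142906754, minus strand) had 983 and 917 FPKM in Fmr-i1, against 752 and 742 FPKM in Ctrl-i, with no overlap, and the log2 fold change was 0.35 (standard error 0.27). Actg1 (Actg1-202, chromosome 11, 120345690 to 120348542, minus strand) had 1004 and 750.0 FPKM in Fmr-i1, against 806 and 695 FPKM in Ctrl-i. Its Exp.2 library of Fmr-i1 lay below the Exp.1 library of Ctrl-i, so the groups overlapped, and after median scaling Actg1 was lower in Fmr-i1 in Exp.2. Relative to the shift of all symbols, the mean difference was 0.15 for Actb and 0.02 for Actg1.

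Among proteins that lie along filaments, 6 of 7 genes were higher in Fmr-i1 in both experiments, beside 35.6% of all symbols. After median scaling these were 5 of 7, beside 24.1%. The 7 genes summed to 1647 and 1827 FPKM in Fmr-i1, against 1372 and 1438 FPKM in Ctrl-i. Tagln2, transgelin-2 of non-muscle cells, had 129 and 109 FPKM in Fmr-i1, against 74.5 and 76.3 FPKM in Ctrl-i. The Ctrl-i libraries were nearly equal and both Fmr-i1 libraries lay above them. Cnn3, the acidic calponin, was the most abundant of the 7 with 1289.7 and 1448 FPKM in Fmr-i1, against 1142 and 1198 FPKM in Ctrl-i, and its difference of 0.22 was 0.03 after median scaling. Cnn2, the neutral calponin, had 8.93 and 13.4 FPKM in Fmr-i1, against 5.22 and 7.22 FPKM in Ctrl-i. It was higher by more than 1.5 times in each experiment, as 8.23% of all symbols were.

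Tpm3, a tropomyosin of stress fibres and cortex, had 138 and 121 FPKM in Fmr-i1, against 75.8 and 82.2 FPKM in Ctrl-i, without overlap. Tpm4, another non-muscle tropomyosin, had 27.5 and 55.7 FPKM in Fmr-i1, against 30.9 and 23.6 FPKM in Ctrl-i. It was high in the Exp.2 library of Fmr-i1 alone. Lima1, also called Eplin, which bundles filaments, had 11.5 and 7.55 FPKM in Fmr-i1, against 5.97 and 5.04 FPKM in Ctrl-i, and Cald1, the gene of caldesmon, had 42.7 and 73.4 FPKM in Fmr-i1, against 38.0 and 45.5 FPKM in Ctrl-i. Lima1 did not overlap between the groups, and Cald1 did.

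Non-muscle myosin II has 2 heavy chains in this list, and both were higher in Fmr-i1. Myh9, the heavy chain of myosin IIA, had 28.4 and 29.1 FPKM in Fmr-i1, against 18.6 and 10.3 FPKM in Ctrl-i. The Fmr-i1 libraries were close to each other, the Ctrl-i libraries were not, and the log2 fold change was 1.00 (standard error 0.41). Myh10, the heavy chain of myosin IIB, had 44.9 and 83.7 FPKM in Fmr-i1, against 37.6 and 14.6 FPKM in Ctrl-i. Much of this stood in a noncoding row, Myh10-206, and the coding row Myh10-203 had 15.8 and 13.6 FPKM in Fmr-i1, against 10.6 and 8.26 FPKM in Ctrl-i. That row had a log2 fold change of 0.60 (standard error 0.41), without overlap of the groups.

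The light chains differed in size of change. Myl12a and Myl12b, the regulatory light chains of non-muscle cells, lie close together on chromosome 17. They matched at 96.5% of coding bases, with a longest shared stretch of 102 bases, which is shorter than a read of the study. Only coding sequences were compared. Their values may share fragments, which was not tested. Myl12a had 219 and 192 FPKM in Fmr-i1, against 144 and 135 FPKM in Ctrl-i, and Myl12b had 159 and 172 FPKM in Fmr-i1, against 137 and 98.4 FPKM in Ctrl-i. Neither overlapped between the groups. Myl6, the essential light chain, had 299 and 312 FPKM in Fmr-i1, against 347 and 236 FPKM in Ctrl-i. It was lower in Fmr-i1 in Exp.1 and higher in Exp.2, and the sign of its mean difference of 0.09 turned to -0.10 with median scaling. The 5 myosin genes summed to 751 and 789 FPKM in Fmr-i1, against 684 and 495 FPKM in Ctrl-i, with ratios of 1.10 and 1.59 in Exp.1 and Exp.2.

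Crosslinkers tie filaments into bundles and nets. Actn1, alpha-actinin-1, had 42.2 and 48.5 FPKM in Fmr-i1, against 32.9 and 33.9 FPKM in Ctrl-i, and Actn4, alpha-actinin-4, had 85.8 and 59.8 FPKM in Fmr-i1, against 38.9 and 59.1 FPKM in Ctrl-i. Both genes were higher in each experiment, although for Actn4 the Exp.2 values were nearly equal and median scaling turned them round. Flna, filamin A, had 32.5 and 47.8 FPKM in Fmr-i1, against 57.2 and 24.4 FPKM in Ctrl-i, and Fscn1, fascin, had 19.1 and 45.0 FPKM in Fmr-i1, against 19.1 and 12.6 FPKM in Ctrl-i. Flna went opposite ways in the 2 experiments, and Fscn1 was level in Exp.1 and higher in Exp.2.

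The Arp2/3 complex, which starts branches on existing filaments, summed to 678 and 630 FPKM in Fmr-i1, against 568 and 491 FPKM in Ctrl-i. Of its 8 genes, 5 were higher in Fmr-i1 in both experiments, beside 35.6% of all symbols. Those 5 (Arpc1a, Arpc1b, Arpc3, Arpc5 and Actr2) did not overlap between the groups, before or after median scaling. Both Fmr-i1 libraries lay above both Ctrl-i libraries in 27.2% of all symbols before scaling and 17.1% after. Arpc1b, one of the alternative p41 subunits, had 42.7 and 33.4 FPKM in Fmr-i1, against 28.3 and 15.7 FPKM in Ctrl-i, and its sum was higher by more than 1.5 times in each experiment. Arpc1a, the other p41 subunit, had 114 and 114 FPKM in Fmr-i1, against 93.6 and 75.2 FPKM in Ctrl-i, and Arpc3, the p21 subunit, had 105 and 105 FPKM in Fmr-i1, against 88.1 and 55.9 FPKM in Ctrl-i. In both genes the Fmr-i1 libraries were nearly equal and the Ctrl-i library of Exp.2 was the lowest.

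Arpc5, the p16 subunit, had 94.1 and 105 FPKM in Fmr-i1, against 78.5 and 59.7 FPKM in Ctrl-i, and Actr2, the actin-related protein Arp2, had 72.3 and 79.5 FPKM in Fmr-i1, against 64.8 and 57.3 FPKM in Ctrl-i. The remaining subunits were not alike. Actr3, the actin-related protein Arp3, had 58.1 and 48.2 FPKM in Fmr-i1, against 43.6 and 48.4 FPKM in Ctrl-i, Arpc2, the p34 subunit, had 122 and 115 FPKM in Fmr-i1, against 123 and 109 FPKM in Ctrl-i, and Arpc4, the p20 subunit, had 69.8 and 31.8 FPKM in Fmr-i1, against 48.8 and 69.1 FPKM in Ctrl-i. All 3 went opposite ways in the 2 experiments, and after median scaling Arpc2 was lower in Fmr-i1 in both.

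Genes of capping, severing and disassembly stood near the level of all symbols, with a median difference of 0.11, beside 0.16 over all symbols. Their sum was 1665 and 1294 FPKM in Fmr-i1, against 1427 and 1274 FPKM in Ctrl-i. Cfl1, cofilin-1, which severs ageing filaments, had 380.4 and 404 FPKM in Fmr-i1, against 343 and 265 FPKM in Ctrl-i. Wdr1, its cofactor Aip1, had 63.5 and 60.0 FPKM in Fmr-i1, against 52.4 and 38.8 FPKM in Ctrl-i. Neither gene overlapped between the groups under any scaling tried, while Dstn, destrin, with 225 and 173 FPKM in Fmr-i1, against 167 and 226 FPKM in Ctrl-i, and Cfl2, cofilin-2, with 85.6 and 80.6 FPKM in Fmr-i1, against 98.2 and 60.3 FPKM in Ctrl-i, went opposite ways in the 2 experiments.

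Gsn, the gene of gelsolin, which severs and caps filaments, was lower in Fmr-i1 in both experiments. It had 84.8 and 59.9 FPKM in Fmr-i1, against 91.7 and 85.8 FPKM in Ctrl-i, which gave a log2 fold change of -0.31 (standard error 0.31), and both Fmr-i1 libraries lay below both Ctrl-i libraries. Capping protein is a dimer of an alpha and a beta subunit. Capza1, an alpha subunit gene, had 31.8 and 30.6 FPKM in Fmr-i1, against 30.0 and 23.2 FPKM in Ctrl-i, Capza2, the other alpha subunit gene, had 148 and 114 FPKM in Fmr-i1, against 139 and 104 FPKM in Ctrl-i, and Capzb, the beta subunit, had 646 and 372 FPKM in Fmr-i1, against 505 and 470.4 FPKM in Ctrl-i. Capza1 was apart between the groups as deposited and Capza2 was not, and Capzb was highest in the Exp.1 library of Fmr-i1 and lowest in the Exp.2 library of Fmr-i1.

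The monomer-binding genes held the largest summed FPKM of the 11 roles, 4627 and 3554 FPKM in Fmr-i1, against 3381 and 2848 FPKM in Ctrl-i. All 4 were higher in Fmr-i1 in both experiments, before and after median scaling, beside 35.6% and 24.1% of all symbols. Tmsb4x, thymosin beta-4, which sequesters monomers, had the highest FPKM of the 54 genes, 3521 and 2544 FPKM in Fmr-i1, against 2426 and 2063 FPKM in Ctrl-i. The groups were apart, with most of the gap in the Exp.1 library of Fmr-i1, and overlapped after median scaling. Tmsb10, thymosin beta-10, had 373 and 329 FPKM in Fmr-i1, against 335 and 239.6 FPKM in Ctrl-i. Profilins hand monomers to growing ends. Pfn1, profilin-1, had 478 and 416 FPKM in Fmr-i1, against 412 and 339 FPKM in Ctrl-i, and Pfn2, profilin-2, had 254 and 265 FPKM in Fmr-i1, against 207 and 206 FPKM in Ctrl-i. Of these 4, Pfn2 alone kept the groups apart under every scaling tried.

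Ezrin, radixin and moesin link filaments to the plasma membrane, and ezrin lies at the apical surface of many epithelia. Ezr had 248 and 188 FPKM in Fmr-i1, against 216 and 218 FPKM in Ctrl-i, Msn had 165 and 81.2 FPKM in Fmr-i1, against 129.6 and 98.0 FPKM in Ctrl-i, and Rdx had 35.7 and 39.9 FPKM in Fmr-i1, against 34.8 and 47.5 FPKM in Ctrl-i. All 3 were higher in Fmr-i1 in Exp.1 and lower in Exp.2, and their sum had ratios of 1.18 and 0.85.

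Genes of focal adhesions were few and low. Zyx, zyxin, had 0.45 and 12.7 FPKM in Fmr-i1, against 8.02 and 5.43 FPKM in Ctrl-i, so the Fmr-i1 libraries lay on either side of both Ctrl-i libraries. Vcl, vinculin, had 12.2 and 8.94 FPKM in Fmr-i1, against 6.58 and 8.05 FPKM in Ctrl-i, and Vasp, which speeds filament growth, had 9.45 and 18.2 FPKM in Fmr-i1, against 12.6 and 8.46 FPKM in Ctrl-i. Vcl was higher in both experiments and Vasp in Exp.2 alone. Tln1, talin-1, which couples integrins to actin, was lower in both experiments, with 8.71 and 9.24 FPKM in Fmr-i1, against 13.0 and 10.6 FPKM in Ctrl-i. Its coding row, Tln1-201, did not share this direction, with 6.48 and 8.18 FPKM in Fmr-i1, against 7.04 and 4.73 FPKM in Ctrl-i, and the fall stood in the noncoding row Tln1-202, at 2.23 and 1.06 FPKM in Fmr-i1, against 5.95 and 5.91 FPKM in Ctrl-i.

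Cttn, cortactin, which steadies Arp2/3 branches, had 112 and 107 FPKM in Fmr-i1, against 114 and 100.1 FPKM in Ctrl-i, and was lower in Fmr-i1 in both experiments after median scaling.

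**Figure D3:**
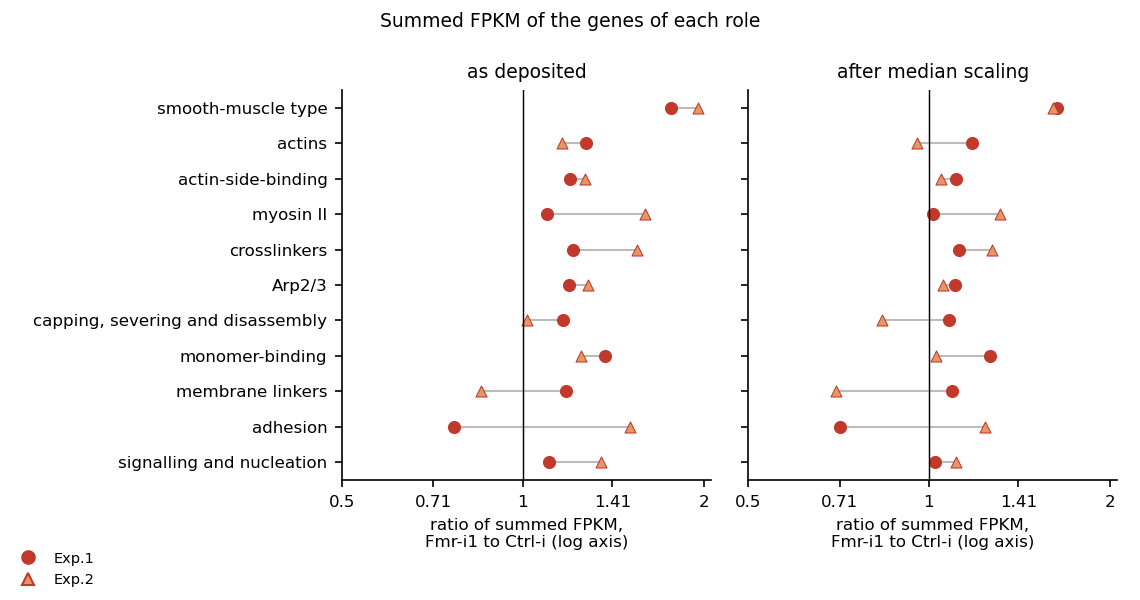
Ratio of summed FPKM, Fmr-i1 to Ctrl-i, for the genes of each role in Exp.1 (circles) and Exp.2 (triangles), as deposited and after median scaling, on a log axis. As deposited, the smooth-muscle type genes have the highest ratios in each experiment (1.76 and 1.96), and membrane linkers and adhesion genes fall on both sides of 1.

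Across scalings, 21 of the 54 genes had both Fmr-i1 libraries above both Ctrl-i libraries as deposited, after median scaling, after quantile normalization and after rescaling without mitochondrially encoded RNAs, beside 16.7% of all symbols. Among them were Acta2, Tagln, Tpm1, Tagln2, Cnn2, Tpm3, Lima1, Myh9, Myh10, Myl12a, Myl12b, Actn1, Arpc1a, Arpc1b, Arpc3, Arpc5, Actr2, Cfl1, Wdr1 and Pfn2. The sign of the mean difference was positive under all 4 in 38 genes and negative in 6, and it turned in 10 (Arpc2, Capza2, Capzb, Cfl2, Cttn, Dstn, Flna, Msn and Myl6 among them). By more than 1.5 times in each experiment, 5 genes were higher (Acta2, Tpm1, Cnn2, Myh9 and Arpc1b) and none was lower, beside 8.23% and 3.08% of all symbols.

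Transcripts of a gene could differ in direction. Of 18 genes with several rows in the fit, 11 had rows of both signs. The share among all genes with several rows was not computed, so this count describes the list only. Tpm1 had 5 rows on chromosome 9, minus strand. The row Tpm1-212, with 248 coding codons and so a short tropomyosin, had 42.0 and 51.0 FPKM in Fmr-i1, against 21.3 and 11.9 FPKM in Ctrl-i. The row Tpm1-216, with 284 codons and so a long tropomyosin, had 32.6 and 36.8 FPKM in Fmr-i1, against 17.9 and 16.4 FPKM in Ctrl-i. Their log2 fold changes were 1.48 (standard error 0.41) and 0.97 (standard error 0.36), and neither row overlapped between the groups. The row Tpm1-211, also of 248 codons, was level at 32.0 and 23.6 FPKM in Fmr-i1, against 23.5 and 30.3 FPKM in Ctrl-i. Both short and long forms were therefore among the rows that were higher. Tpm1-213 and Tpm1-209 stayed under 6 FPKM. Tpm1-213, also of 284 codons, was lower in both experiments, with 5.17 and 0.01 FPKM in Fmr-i1, against 5.33 and 1.70 FPKM in Ctrl-i. Tpm1-209, of 245 codons, was higher in both, with 2.92 and 2.48 FPKM in Fmr-i1, against 1.62 and 2.40 FPKM in Ctrl-i.

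Gelsolin has a secreted form with a signal peptide and a shorter cytoplasmic form, and their rows on chromosome 2 went opposite ways. Gsn-201, with the 780 codons of the secreted form, had 47.0 and 19.1 FPKM in Fmr-i1, against 62.5 and 62.5 FPKM in Ctrl-i. Gsn-205, with the 731 codons of the cytoplasmic form, had 37.8 and 40.8 FPKM in Fmr-i1, against 29.3 and 23.3 FPKM in Ctrl-i. The secreted form was lower and the cytoplasmic form higher in each experiment, without overlap, with log2 fold changes of -1.03 (standard error 0.42) and 0.57 (standard error 0.35). The lower sum of Gsn thus came from the row of the secreted form.

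Rows without a coding sequence carried part of some sums. Tpm3-212, a retained-intron transcript of Tpm3, had 71.1 and 50.6 FPKM in Fmr-i1, against 21.7 and 28.1 FPKM in Ctrl-i, whereas the coding row Tpm3-201 had 67.0 and 69.9 FPKM in Fmr-i1, against 54.2 and 54.1 FPKM in Ctrl-i. The groups did not overlap in either row, and Tpm3-212 had a log2 fold change of 1.25 (standard error 0.37) and Tpm3-201 one of 0.33 (standard error 0.30). Myh10-206, a noncoding transcript at the 3′ part of Myh10, had 29.1 and 70.1 FPKM in Fmr-i1, against 27.0 and 6.35 FPKM in Ctrl-i. It was level in Exp.1 and apart in Exp.2, and it held most of the Myh10 sum in 3 of the 4 libraries. With protein-coding rows alone, 5 of 5 smooth-muscle type genes and 32 of 49 cortical genes were higher in Fmr-i1 in both experiments. With all rows these were 5 and 31, beside 35.6% of all symbols. The share of all symbols was not computed for protein-coding rows alone.

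Other rows stood at almost nothing in 1 library. Cald1-204 had 0.01 and 26.2 FPKM in Fmr-i1, against 12.03 and 14.95 FPKM in Ctrl-i, while Cald1-203 had 42.7 and 47.2 FPKM in Fmr-i1, against 26.0 and 30.5 FPKM in Ctrl-i. Only Cald1-203 kept the groups apart. Capzb-209, a short transcript, had 215.2 and 0.15 FPKM in Fmr-i1, against 51.9 and 31.6 FPKM in Ctrl-i. It went the same opposed ways as the Capzb sum. The most abundant Capzb row, Capzb-206, had 215.2 and 158 FPKM in Fmr-i1, against 248.2 and 272 FPKM in Ctrl-i. Capzb-206 was thus lower in Fmr-i1 in both experiments, without overlap. Capzb-203 and Capzb-204 each went opposite ways between the experiments. Arpc1b-211 had 20.8 and 19.7 FPKM in Fmr-i1, against 9.88 and 5.30 FPKM in Ctrl-i, giving a log2 fold change of 1.36 (standard error 0.44), whereas Arpc1b-201 had 22.0 and 13.7 FPKM in Fmr-i1, against 18.4 and 10.4 FPKM in Ctrl-i and overlapped. Myl6-201 had 58.3 and 100.5 FPKM in Fmr-i1, against 32.9 and 52.5 FPKM in Ctrl-i, and the more abundant Myl6-206 had 235.9 and 210.4 FPKM in Fmr-i1, against 303.3 and 179.0 FPKM in Ctrl-i. Myl6-201 was higher in each experiment and Myl6-206 in Exp.2 only.

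**Figure D4:**
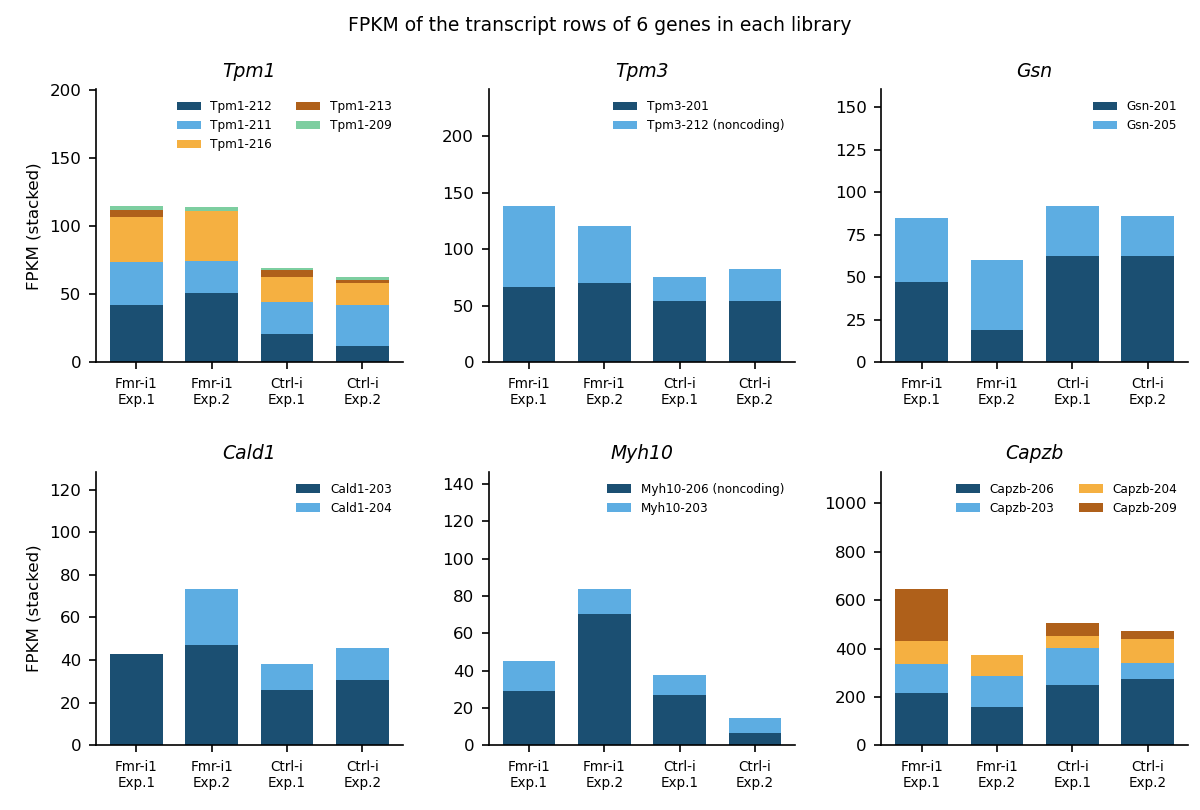
FPKM of each transcript row, stacked, of 6 genes with several rows, in the 2 Fmr-i1 and the 2 Ctrl-i libraries. Tpm1-212 and Tpm1-216 are taller in both Fmr-i1 libraries, Gsn-201 is shorter and Gsn-205 taller, Cald1-204 is at 0.01 FPKM in one Fmr-i1 library, and Capzb-209 reaches 215.2 FPKM in one Fmr-i1 library and 0.15 FPKM in the other.

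The precision behind these values could be read from the steps of the table. Among genes with 1 annotated transcript, FPKM multiplied by transcript length fell on whole multiples of 1 step within each library, for 89.4% to 90.2% of low values at a tolerance of 0.1 of a step. If a step is 1 fragment, 1 fragment on a transcript of 1 kb was worth 1.05 and 0.944 FPKM in Fmr-i1, against 1.12 and 0.987 FPKM in Ctrl-i, and the rows held 880543 and 976461 fragments in Fmr-i1, against 829487 and 947978 fragments in Ctrl-i. Such totals are low for an RNA-seq library, and whether a step is 1 fragment was not settled. On that reckoning Acta2 rested on 289 and 216 fragments in Fmr-i1 and 133 and 115 in Ctrl-i, and Myl9 on 19 and 27 in Fmr-i1 and 14 and 18 in Ctrl-i. At least 100 fragments in every library stood behind 34 of the 54 genes. Cnn1, with 8.3 fragments in its highest library, and Zyx, with 0.98 in its lowest, fell under 10 fragments in some library, where single fragments move the value. Values of genes with several rows were whole in only 24.0% to 25.7% of cases, so no count test was run.

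Serum response factor (SRF) and its actin-sensing coactivators of the myocardin family drive many actin genes through the CArG box, and TEAD factors act at the MCAT element, CATTCC. Both motifs and TATAAA were searched on both strands in the 300 bases from 250 before to 50 after the start of each gene in RefSeq (GRCm38.p6), for the 53 listed genes in that table. Actb, Actg2, Tagln, Diaph1 and Cttn were among those not matched. A CArG box stood in 8 of the 53 (15.1%), against 1.81% of 27025 symbols, CATTCC in 11 (20.8%), against 16.6%, and TATAAA in 5 (9.43%), against 15.7%. A match is a string of letters and not a shown binding site. The 4 matches below are from 4 of the 5 genes with a box that were higher in Fmr-i1 in both experiments, shown in the gene's direction, with the CArG box in capitals:
Myl9: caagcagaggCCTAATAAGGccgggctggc
Cnn2: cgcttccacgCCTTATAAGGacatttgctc
Lima1: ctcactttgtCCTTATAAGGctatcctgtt
Actg1: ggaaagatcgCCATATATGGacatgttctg
The window of Myl9 is chr2:156775293-156775322 on the plus strand and that of Cnn2 is chr10:79988534-79988563 on the plus strand. Those of Lima1, chr15:99820177-99820206, and Actg1, chr11:120348566-120348595, are on the minus strand. The boxes begin 161, 56, 47 and 90 bases before the start in Myl9, Cnn2, Lima1 and Actg1. Cnn2 and Lima1 share the same 10 letters. The other boxes were in Vcl, Myl6, Arpc4 and Vil1. Of the 7 genes with a box and a row, 5 were higher in Fmr-i1 in both experiments and none was lower in both, with a median difference of 0.41 on the log2(FPKM+1) scale, and of the 11 genes with CATTCC, among them Acta2, Tpm1, Tagln2, Myh10 and Myl12a, 9 were higher in both, with a median of 0.55. These counts stand beside 36 of all 54 listed genes with a row, and 35.6% of all symbols, that were higher in both, and the motif was not tested against them. The counts are for values as deposited. After median scaling Myl9, Cnn2 and Lima1 stayed higher in both, and Actg1 and Vcl went opposite ways between the experiments. Among the genes with CATTCC, Actn4 and Vcl then went opposite ways and Arpc2 was lower in both.

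Actin pathway genes outside the list were set beside it. Of 63 regulators and filament proteins, 46 had rows. Of these, 13 were higher in Fmr-i1 in both experiments and 8 lower in both, beside 35.6% and 15.2% of all symbols. The median difference was 0.03 on the log2(FPKM+1) scale, beside 0.36 for the 54 genes and 0.16 for all symbols. After median scaling 10 were higher in both and 15 lower in both, beside 24.1% and 25.7% of all symbols. The median difference was then -0.14, beside 0.17 for the 54 genes and -0.01 for all symbols. Srf itself had 8.95 and 9.88 FPKM in Fmr-i1, against 7.08 and 5.30 FPKM in Ctrl-i, and Mkl2, a coactivator also named Mrtfb, had 5.30 and 5.67 FPKM in Fmr-i1, against 3.90 and 4.04 FPKM in Ctrl-i. Both were apart between the groups before and after median scaling, where 27.2% and 17.1% of all symbols lay above in Fmr-i1. The log2 fold changes were 0.54 (standard error 0.45) for Srf and 0.38 (standard error 0.47) for Mkl2, in the fit to sums per symbol.

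The WAVE and WASP group turns on Arp2/3. Of its 10 genes, 1 was higher in both experiments and 3 were lower in both, beside 35.6% and 15.2% of all symbols. After median scaling these were 1 and 5, beside 24.1% and 25.7%. Brk1, a small WAVE subunit, had 75.5 and 79.9 FPKM in Fmr-i1, against 99.8 and 91.0 FPKM in Ctrl-i, below in both. Cyfip1, a WAVE subunit that also binds Fmrp, had 25.9 and 32.3 FPKM in Fmr-i1, against 18.4 and 26.0 FPKM in Ctrl-i, with overlap. Limk2, a kinase that blocks cofilin, was listed at 0 FPKM in Fmr-i1 in each experiment and at 0.11 and 0.80 FPKM in Ctrl-i. Of the 46 pathway genes with rows, 43 reached a mean of 1 FPKM and were tested as sums per symbol. None of them had an adjusted p under 0.05 in limma. Limk2 was below that mean and was not tested.

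Markers of other cell types that a mixed culture could hold were set beside the smooth-muscle type genes. Of 12 mural and smooth muscle markers 5 had rows, and Myh11, Smtn, Des, Cspg4, Kcnj8, Abcc9 and Mcam had none. Genes at 0 in Ctrl-i may have been left out, so a marker with no row cannot be called absent from Fmr-i1. The 5 markers with rows summed to 31.4 and 18.6 FPKM in Fmr-i1, against 39.5 and 11.1 FPKM in Ctrl-i, which overlapped. Synpo2 made up most of this sum in 3 of the 4 libraries. Of the 5, 1 was higher in both experiments and 2 were lower in both, beside 35.6% and 15.2% of all symbols. The other 2 went opposite ways. After median scaling 0 of the 5 were higher in both and 3 lower in both, beside 24.1% and 25.7% of all symbols. Rgs5, a pericyte marker and the 1 that was higher, had 2.56 and 4.59 FPKM in Fmr-i1, against 2.45 and 0.48 FPKM in Ctrl-i. Synpo2 and Lmod1 were the 2 that were lower, Synpo2 with 26.3 and 5.23 FPKM in Fmr-i1, against 32.0 and 6.33 FPKM in Ctrl-i. One of 10 fibroblast and leptomeningeal markers had a row, Col1a2, which stayed under 1 FPKM in every library. One of 7 endothelial markers had a row, Kdr, at 2.30 and 0.79 FPKM in Fmr-i1, against 0.56 and 1.00 FPKM in Ctrl-i, and 0 of 8 microglial markers had one. The 10 ependymal markers all had rows and summed to 1616 and 1509 FPKM in Fmr-i1, against 1274 and 1674 FPKM in Ctrl-i.

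The summed astrocyte markers were lower in Fmr-i1. Of the 7 markers, 3 (Gfap, Aqp4 and S100b) were lower in both experiments, beside 15.2% of all symbols, and 4 went opposite ways. The 7 markers summed to 1980 and 2022 FPKM in Fmr-i1, against 2867 and 2249 FPKM in Ctrl-i, without overlap. Gfap, the filament protein of reactive astrocytes, made up most of each sum, with 1331 and 1370 FPKM in Fmr-i1, against 2101 and 1440 FPKM in Ctrl-i. Oligodendrocyte lineage markers summed to 51.0 and 70.9 FPKM in Fmr-i1, against 44.1 and 42.6 FPKM in Ctrl-i, and neuronal markers to 73.2 and 90.8 FPKM in Fmr-i1, against 96.0 and 87.7 FPKM in Ctrl-i. The mitochondrial ribosomal RNAs took 28.4% and 23.0% of the FPKM in Fmr-i1 and 27.4% and 37.6% in Ctrl-i, so the Ctrl-i library of Exp.2 had the smallest share left for other genes. The part of cell makeup and of these RNAs in the differences of actin genes was not tested.

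**Figure D5:**
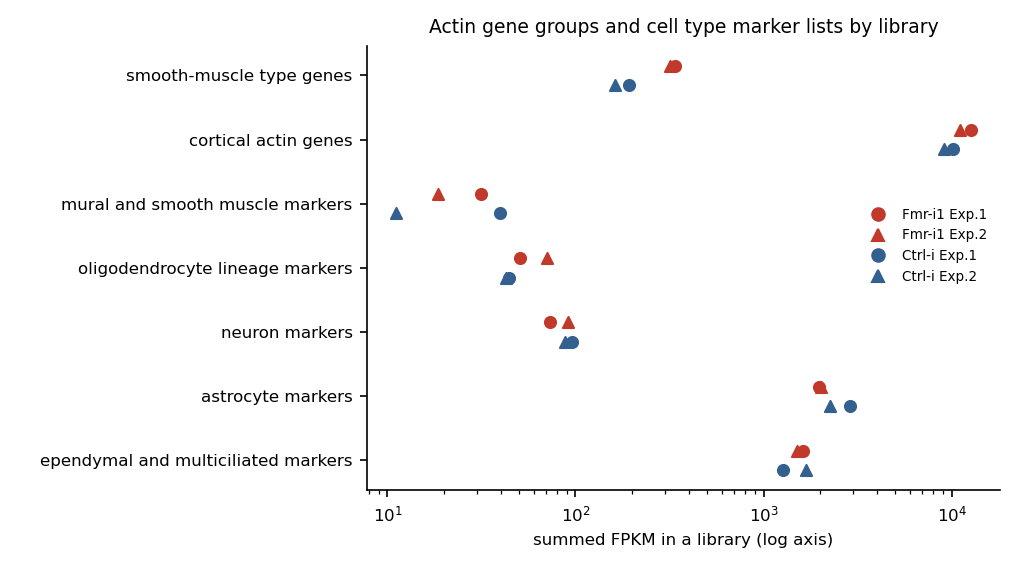
Summed FPKM in each library, on a log axis, of the smooth-muscle type genes, the cortical actin genes and 5 lists of cell type markers, Fmr-i1 in red above Ctrl-i in blue, Exp.1 as circles and Exp.2 as triangles. The smooth-muscle type sums (338 and 319 FPKM in Fmr-i1, against 192 and 163 FPKM in Ctrl-i) are apart, the mural and smooth muscle markers overlap between the groups, and the summed astrocyte markers, mostly Gfap, are lower in both Fmr-i1 libraries.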

How the data were processed

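The 4 libraries hold RNA of purified multicilia, 2 from Fmr-i1 and 2 from Ctrl-i cultures, with 1 of each per experiment. The cultures were at day 10 of serum starvation, and 40 pmol is the siRNA amount that the study gives for dishes. The authors deposited FPKM for 12515 transcript rows. The study's methods name Cutadapt, Hist and Cuffdiff, whereas HISAT2 2.1.0 and featureCounts 1.5.3 stand in the processing notes of the submitters, with GRCm38/mm10 as the genome. Which of these tools made the deposited FPKM, and whether counting used the strand that the kit keeps, could not be settled from the sources used. Rows were matched by transcript identifier to GENCODE M21 (12483 rows), which also gave back 25 symbols that had become dates.

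Rows whose FPKM averaged 1 or more were tested for Fmr-i1 against Ctrl-i on the log2(FPKM+1) scale (pseudocount 1 FPKM) with limma 3.58.1 in R 4.3.3. The model was blocked on experiment and used a variance trend, and p-values were adjusted by Benjamini-Hochberg with a threshold of 0.05. With 1 residual degree of freedom, the fit borrows most of its estimate of error from all rows, its p-values measure only the spread between these libraries, and an exact permutation test of 2 against 2 cannot go below p = 0.333. The fit and the reading of fragment steps were tested on simulated data.

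The members, roles, marker lists and motifs were chosen with earlier results of these data known. The members are named, except that values of some are not reported here, and of each other list the measured genes with the highest mean FPKM (at most 4) or at 0 in a library. Single examples of transcript rows were chosen after their values were seen. Coding identity between actins and between light chains was computed from aligned coding sequences, in place of a planned comparison of proteins, which was not made. As alternatives, the pseudocount was set to 0.1 and 5 FPKM and the filter to none and to a mean of 5 FPKM, and other fits used median scaling, quantile normalization, rescaling without mitochondrially encoded RNAs, sums per symbol, no block, no variance trend, differences above 1.5 times, the row with the highest mean per symbol, and each library left out in turn.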

Additional observations from a re-analysis of the deposited data

How the results depend on the processing

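No member row had an adjusted p under 0.05 in limma in any alternative, where between 541 and 901 rows of the whole table (354 where the mean had to reach 5 FPKM) and 519 symbols with sums per symbol passed an unadjusted p of 0.05. Libraries that share an experiment deviated from their group means with a correlation of -0.08, and the replicate block rests on the labels, which give each experiment its own Fmr-i1 and Ctrl-i library. With no replicate block, 3 rows of the whole table passed the adjustment, against 0 with it, and none of the 3 belonged to a member. The median log2 fold change of the smooth-muscle type rows, 0.93, was 0.65 with a pseudocount of 5 FPKM, 0.73 with median scaling and 0.81 with quantile normalization, and it lay between 0.58 and 1.04 with each library left out. The median of the cortical rows, 0.32, was 0.14 with median scaling. The log2 ratio of the smooth-muscle type sums, 0.89, was 0.70 with median scaling, 0.76 with quantile normalization and between 0.78 and 1.01 with each library left out. The log2 ratio of the cortical sums, 0.30, was 0.11 with median scaling, 0.28 with quantile normalization, 0.25 without mitochondrially encoded RNAs, 0.26 without Tmsb4x and between 0.21 and 0.40 with each library left out. Counting only differences of more than 1.5 times, 2 smooth-muscle type and 3 cortical symbols were higher in both experiments, beside 8.23% of all symbols. Without that limit they were 5 and 31, beside 35.6% of all symbols. Every one of these values kept its sign. The sign of the log2 fold change turned in 8 of 79 member rows with median scaling and in 6 to 12 with a library left out. Sums over protein-coding rows, and sums without members under 10 fragments, were chosen after seeing the data and moved no sum beyond the spread between the experiments. Depth limits Cnn1 and Zyx most. The causes of these shifts were not tested.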
